A study of Drosophila melanogaster with 24 samples.

Results

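The attacin, diptericin and cecropin genes encode inducible antibacterial peptides of *Drosophila*, and 10 of them were taken by symbol from the 16995 genes of the deposited count table: *AttA*, *AttB*, *AttC*, *AttD*, *DptA*, *DptB*, *CecA1*, *CecA2*, *CecB* and *CecC*. Of these, 9 had at least 5 counts in at least 3 of the 24 libraries and were tested, among 7865 genes that did so. *AttD*, with 29 counts in all, was under that minimum and is described only. *AttA* passed through exactly 3 libraries, male control 3, male 1 h 1 and male 1 h 2, and was under 5 counts in each of the others.

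These peptides act mainly on bacteria. Diptericins and attacins are best known for Gram-negative bacteria, and cecropins are short amphipathic peptides that break bacterial membranes. Their genes are classical targets of the Imd pathway, in which peptidoglycan receptors signal through the adaptor imd, the adaptor Fadd and the caspase Dredd to the NF-κB factor Relish (*Rel*). The fat body, the fly's liver-like organ, is their best-known source after infection, and haemocytes, gut and glia are other sites where such peptides are made.

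Each library held the RNA of 1 brain, from mated adult *tau*-KO flies 10 to 14 days old. Injured flies received a single strike of full-body trauma (TBI), which does not act on the head alone, and brains were taken 1, 2 or 4 h later. Control brains of each sex came from *tau*-KO flies too, so the knockout was shared by all groups and its own effect cannot be seen here. Sex and condition (control, 1, 2 or 4 h post-TBI) gave 8 groups of 3 libraries, and libraries are named by group and replicate number.

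Reads were QuantSeq tags of 50 bp from the 3′ end of transcripts, which do not check the *tau* deletion. Male control 1 was the shallowest library, with 117416 counts in genes, and male 1 h 2 the deepest, with 1880528. Levels are given as CPM, counts scaled to library size with TMM factors, and a gene with 3 counts stood at 1.63 CPM in the deepest and 21.1 CPM in the shallowest library. All 13 neuronal marker genes passed the count minimum, at a summed 1595 to 5677 CPM a library. Markers of other tissues were also counted: 15 fat body markers summed to 4592 to 23650 CPM and 15 gut markers to 12.9 to 1988 CPM, so none of the libraries was free of them. In whole-brain RNA, more cells of a type and more RNA per cell cannot be told apart. P-values measure the spread between single-brain libraries, and intervals on pooled counts cover counting error only.

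The genes lie in 3 clusters and 2 single sites. *AttA* (FBgn0012042) and *AttB* (FBgn0041581) were neighbours on chromosome arm 2R, with the drosocin gene *Dro* beside *AttA*. *DptA* (FBgn0004240) and *DptB* (FBgn0034407) were neighbours on 2R, and *AttC* (FBgn0041579) lay elsewhere on that arm. *CecA1* (FBgn0000276), *CecA2* (FBgn0000277), *CecB* (FBgn0000278) and *CecC* (FBgn0000279) followed each other on 3R next to *Anp*, the andropin gene. *AttD* (FBgn0038530) stood alone on 3R. *AttA* with *AttB*, and *CecA1* with *CecA2*, are near-identical copies, and the table tallies reads with several aligned places apart from genes, at 12.2 to 32.2% of a library's reads. How many of those came from these copies is not known, so single values of these 4 genes are uncertain. *AttC* shares exon sequence with *CG4744* and *DptB* with *CG43109* on the other strand, and whether counting used strand is not given in the sources used here.

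Summed over the 10 genes, the level was set far apart by 3 male libraries. In males the sum was 141, 33.0 and 1333 CPM in controls, 898, 1162 and 117 CPM at 1 h, 220, 291 and 166 CPM at 2 h and 195, 335 and 120 CPM at 4 h. In females it was 254, 70.9 and 81.8 CPM in controls, 252, 218 and 234 CPM at 1 h, 172, 180 and 172 CPM at 2 h and 266, 258 and 250 CPM at 4 h. Male control 3, male 1 h 2 and male 1 h 1 were thus the highest of the 24, and an uninjured brain was the highest of all. The other 21 libraries reached at most 335 CPM, and none of the 12 female libraries exceeded 266 CPM. The means were 502 ± 721 CPM in male controls and 726 ± 544, 226 ± 62.9 and 217 ± 109 CPM in males at 1, 2 and 4 h, with 136 ± 103 CPM in female controls and 235 ± 17.0, 174 ± 4.46 and 258 ± 8.24 CPM in females at those times (SD, n = 3 each). The sums of female injured brains lay close together within a time, whereas the SD of male controls and of males at 1 h was as large as their mean or nearly so. Female sums at 2 h came from 182, 194 and 68 counts, so their closeness does not measure the spread between brains. Single genes were further apart in places, as *DptB* at 5.19, 51.0 and 5.26 CPM in females at 4 h.

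**Figure D1:**
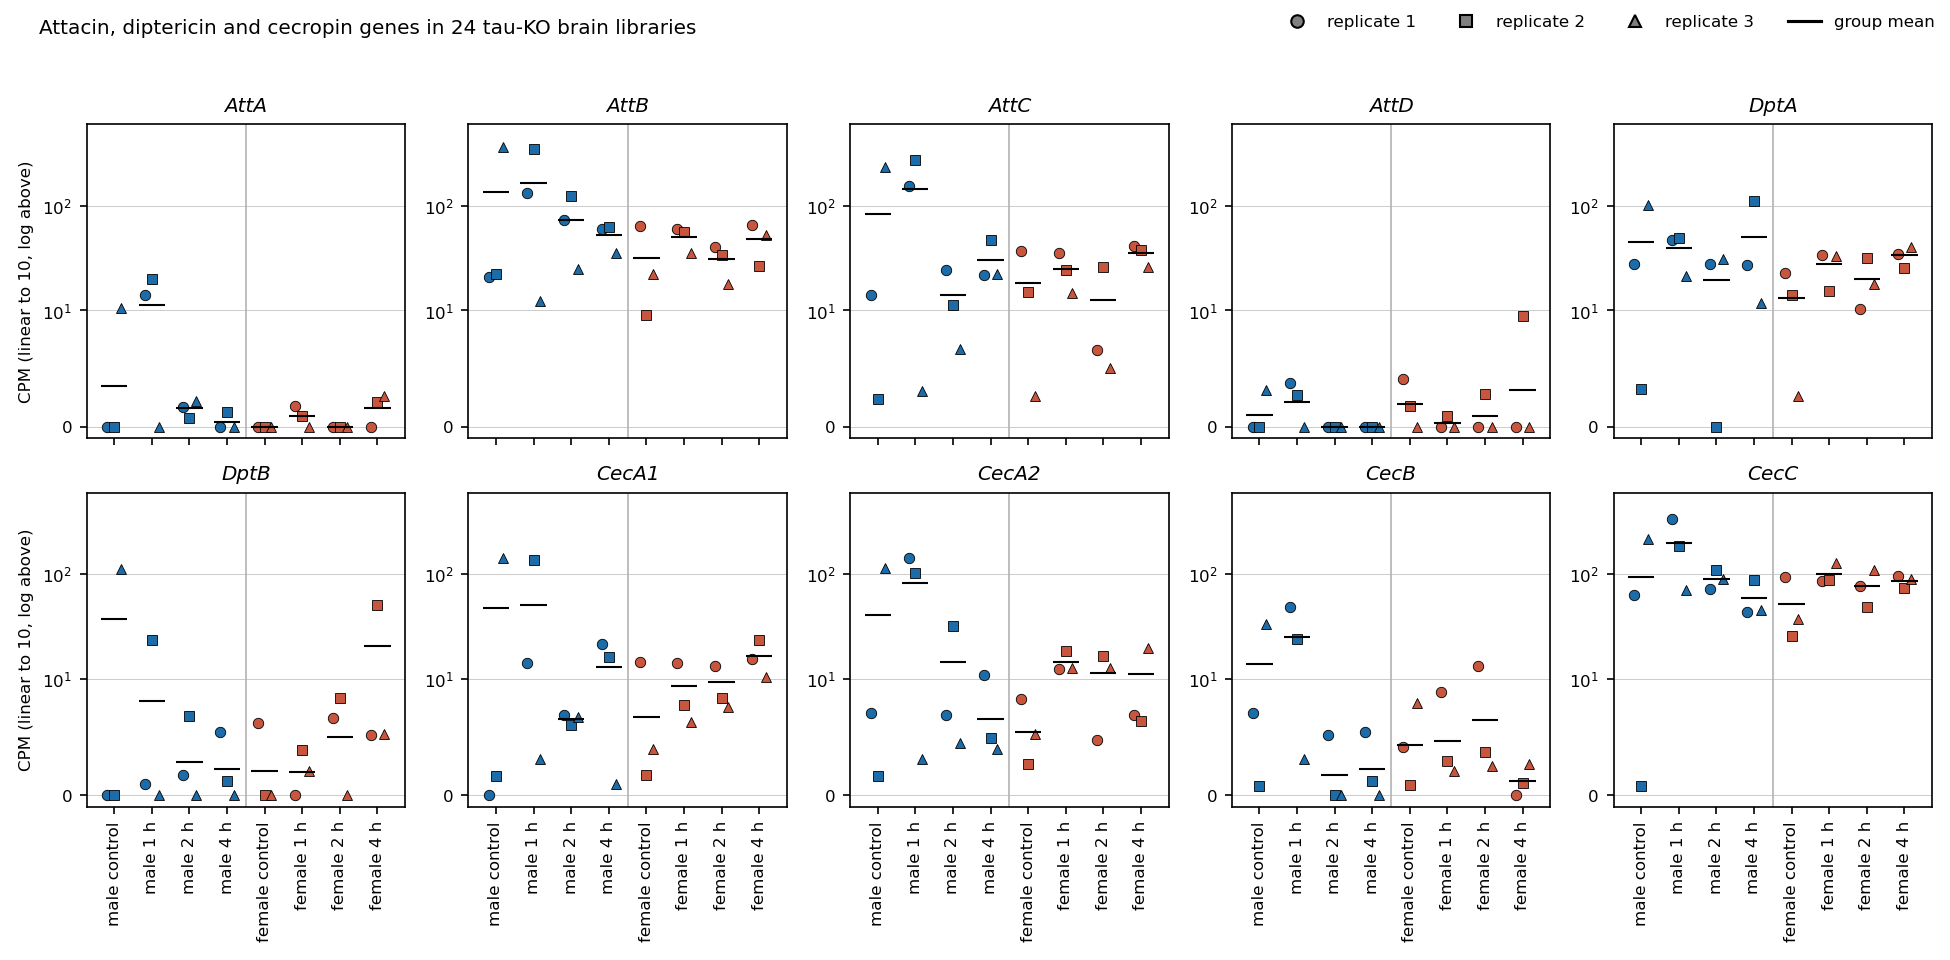
Level of each of the 10 genes in 24 *tau*-KO brain libraries. The y axis is CPM, linear up to 10 and logarithmic above; groups run along the x axis with males (blue) left of females (red), symbols mark the replicate and bars the group mean of 3 libraries. *AttB* reached 365 CPM in male control 3 and 349 CPM in male 1 h 2, while male 1 h 3 had 12.3 CPM.

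Among the attacins, glycine-rich peptides that act on Gram-negative bacteria, *AttB* had counts in all 24 libraries. In males *AttB* was at 21.1, 22.6 and 365 CPM in controls, 134, 349 and 12.3 CPM at 1 h, 72.6, 125 and 24.6 CPM at 2 h and 59.7, 63.0 and 35.3 CPM at 4 h. In females it was at 64.0, 9.63 and 22.4 CPM in controls, 60.4, 56.0 and 35.6 CPM at 1 h, 40.5, 34.3 and 17.7 CPM at 2 h and 65.7, 26.6 and 52.6 CPM at 4 h. Male controls 1 and 2 lay below each male library at 2 and 4 h, and male control 3 lay above all 23 others. Injured and control libraries overlapped in both sexes at each time.

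*AttC*, which encodes a further attacin, showed the same 3 high libraries. In males it was at 14.1, 2.42 and 236 CPM in controls, 156, 272 and 3.07 CPM at 1 h, 24.2, 11.3 and 6.72 CPM at 2 h and 21.7, 46.9 and 22.5 CPM at 4 h. Female brains had 37.1, 14.9 and 2.64 CPM in controls, 35.5, 24.1 and 14.6 CPM at 1 h, 6.60, 25.9 and 5.07 CPM at 2 h and 41.5, 38.2 and 26.3 CPM at 4 h. Apart from the 3 high libraries, no library exceeded 46.9 CPM.

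*AttA* was at 14.02 CPM in male 1 h 1, 20.2 CPM in male 1 h 2 and 10.5 CPM in male control 3, and at no more than 2.63 CPM elsewhere. It had 0 counts in 13 of the 21 other libraries, including all 3 female controls. *AttD*, the most divergent attacin gene, was at 0 in 16 of those 21, and its highest level, 9.56 CPM, was in female 4 h 2. In male 1 h 1, male 1 h 2 and male control 3 it was at 3.74, 2.72 and 3.14 CPM, from 4, 5 and 3 counts. No other male library had a count of it. Counts this low cannot show whether it shared the peak of the other attacins there.

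The diptericin genes *DptA* and *DptB*, neighbours that encode related glycine-rich peptides, differed in pattern. In males *DptA* was at 28.1, 3.223 and 103 CPM in controls, 47.7, 49.0 and 21.5 CPM at 1 h, 27.7, 0 and 31.4 CPM at 2 h and 27.1, 112 and 11.8 CPM at 4 h. Levels in females were 22.7, 14.01 and 2.64 CPM in controls, 33.7, 15.4 and 33.5 CPM at 1 h, 10.4, 31.5 and 17.7 CPM at 2 h and 34.6, 25.5 and 40.7 CPM at 4 h. Male 4 h 2 was the highest library for *DptA*, just above male control 3. In male 2 h 2 it had 0 counts, as did *CecB* and *AttD*, where 3 counts would have been 2.26 CPM, while *AttB* had 165 counts and *CecC* 146 in the same brain.

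*DptB* was at or near 0 in most brains and high in a few. In males it was at 0, 0 and 112 CPM in controls, 0.935, 23.4 and 0 CPM at 1 h, 1.73, 6.79 and 0 CPM at 2 h and 5.43, 1.24 and 0 CPM at 4 h. In females it was at 6.19, 0 and 0 CPM in controls, 0, 3.86 and 2.09 CPM at 1 h, 6.60, 8.33 and 0 CPM at 2 h and 5.19, 51.0 and 5.26 CPM at 4 h. Male control 3, female 4 h 2 and male 1 h 2 held 81.8% of its 242 counts. Male 1 h 1, the library with the top level of *CecC*, had 1 count of *DptB*.

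Among the cecropins, *CecC* had counts in all 24 libraries and *CecB* in 20. In males *CecC* was at 63.3, 0.806 and 216 CPM in controls, 337, 184 and 70.6 CPM at 1 h, 72.6, 110.1 and 89.6 CPM at 2 h and 43.4, 87.7 and 45.1 CPM at 4 h. Female brains had 92.8, 25.4 and 37.0 CPM in controls, 85.2, 87.8 and 128 CPM at 1 h, 76.3, 48.1 and 109 CPM at 2 h and 96.8, 74.4 and 89.4 CPM at 4 h. Male control 2 stood apart at the low end, with 1 count of *CecC* among 1407485 gene counts. It was low for most of the 10 genes, with 28 counts of *AttB* and at most 4 of any other.

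*CecA2* was high in the same 3 male libraries and low elsewhere. In males it was at 7.03, 1.61 and 113 CPM in controls, 143, 102 and 3.07 CPM at 1 h, 6.92, 31.7 and 4.48 CPM at 2 h and 10.9, 4.94 and 3.92 CPM at 4 h. Levels in females were 8.25, 2.63 and 5.28 CPM in controls, 12.4, 18.3 and 12.6 CPM at 1 h, 4.71, 16.7 and 12.7 CPM at 2 h and 6.91, 6.37 and 19.7 CPM at 4 h. The 3 female libraries at 1 h lay above the 3 female controls without overlap.

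*CecA1*, the near-identical neighbour of *CecA2*, did not follow it in every brain. In males it was at 0, 1.61 and 142 CPM in controls, 14.02, 136 and 3.07 CPM at 1 h, 6.92, 6.03 and 6.72 CPM at 2 h and 21.7, 16.1 and 0.980 CPM at 4 h. In females it was at 14.4, 1.75 and 3.96 CPM in controls, 14.2, 7.72 and 6.28 CPM at 1 h, 13.2, 8.33 and 7.60 CPM at 2 h and 15.6, 23.4 and 10.5 CPM at 4 h. In male 1 h 1 there were 15 counts of *CecA1* beside 153 of *CecA2*, whereas male 1 h 2 had 250 and 188, and male control 3 had 135 and 108. *CecB* was at 48.6, 23.97 and 33.5 CPM in male 1 h 1, male 1 h 2 and male control 3. It was at no more than 13.2 CPM, in female 2 h 1, among the 21 others, 4 of which had 0 counts.

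**Figure D2:**
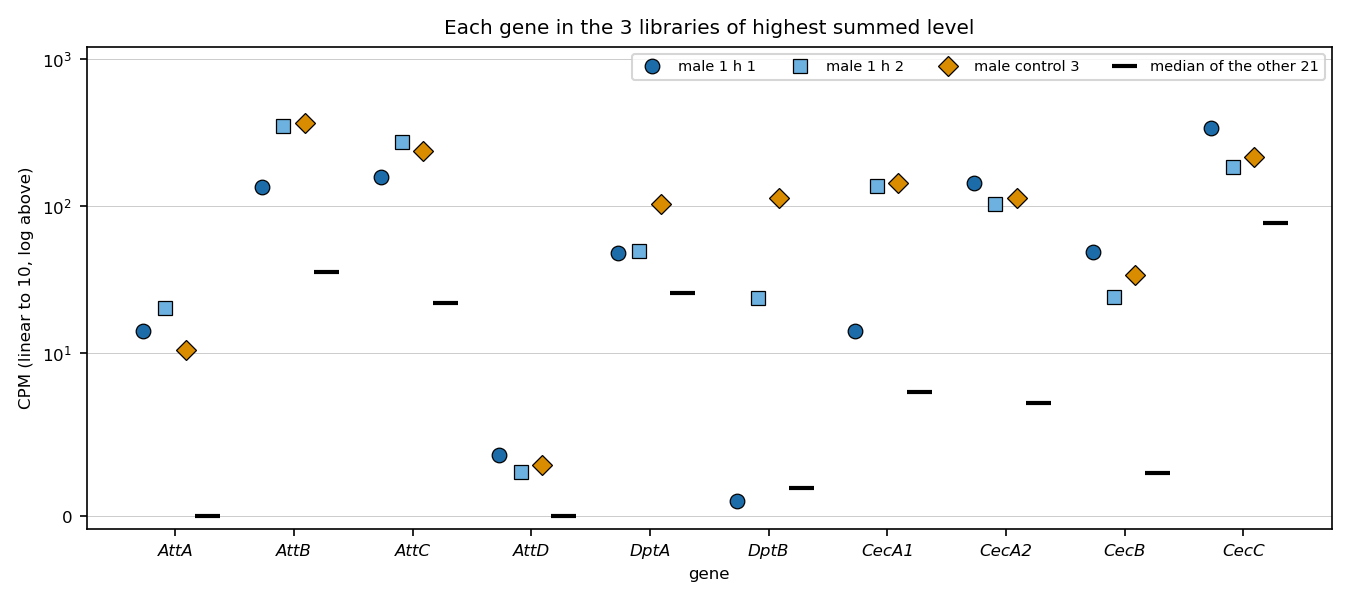
Level of each gene in male 1 h 1, male 1 h 2 and male control 3, beside the median of the other 21 libraries (bar). The y axis is CPM, linear up to 10 and logarithmic above. *DptB* and *CecA1* were high in male control 3 and male 1 h 2 but at 0.935 and 14.02 CPM in male 1 h 1.

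These 3 libraries were picked out for their summed level, so their values are a description. All 3 lay above each of the 21 others for 6 genes: *AttA*, *AttB*, *AttC*, *CecA2*, *CecB* and *CecC*. For *CecA1* 2 of the 3 did, for *DptB* 1, and for *DptA* and *AttD* none. *AttA* passed the count minimum only through these 3, which largely set its place in this count. The share of all genes highest in these 3 was not computed, so the count is no result about the genes. The 3 libraries held between 39.9% of the counts of *DptA* and 86.1% of those of *AttA*. The level in male control 3 was 64.8 times the median of the 21 others for *DptB*, 18.6 times for *CecA1*, 16.4 times for *CecA2*, 10.9 times for *AttC* and 2.83 times for *CecC*. The 3 were not alike in composition: *AttB* was highest in male control 3, *AttC* in male 1 h 2 and *CecC* in male 1 h 1.

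**Figure D3:**
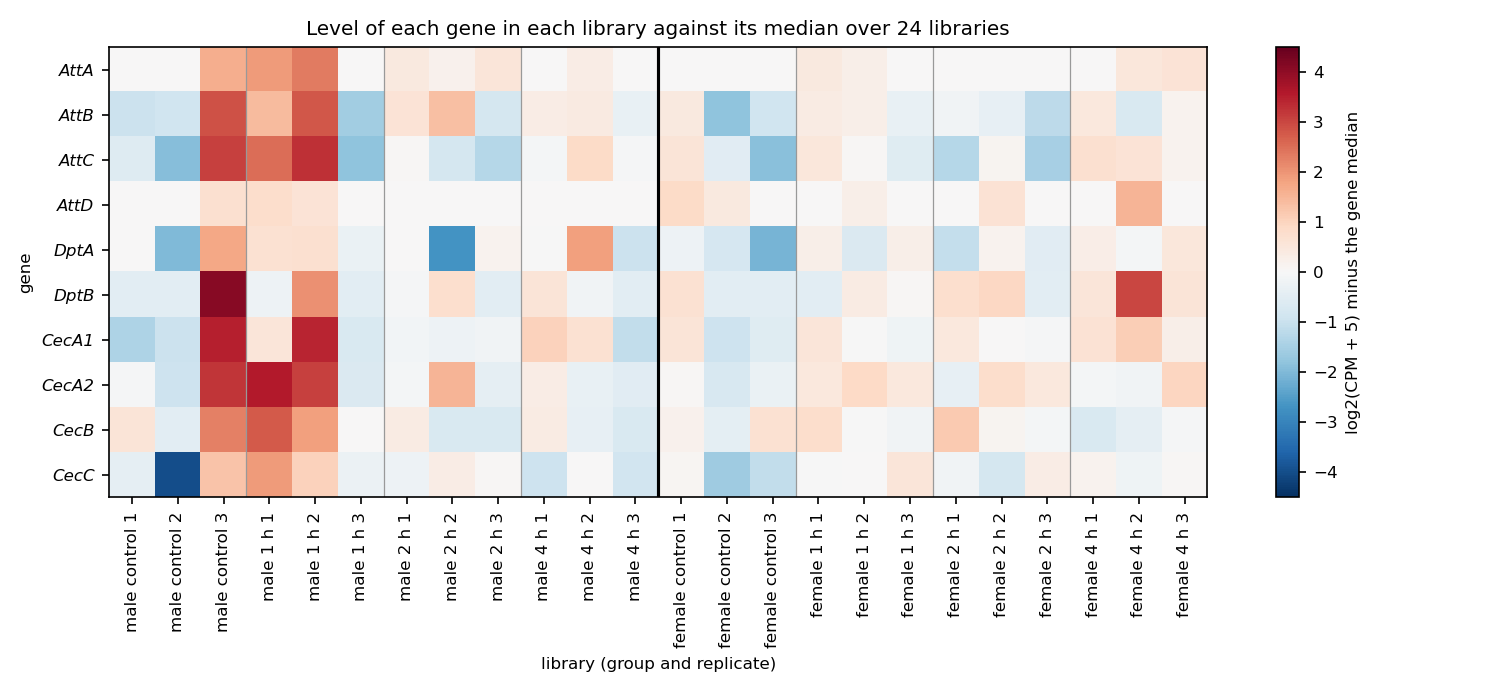
Level of each of the 10 genes (rows) in each library (columns, males left of females), as log2(CPM + 5) minus the median of that gene over 24 libraries. Red is above and blue below the median. Male control 3, male 1 h 1 and male 1 h 2 are red for most genes, and the blue cells of *CecC* in male control 2 and *DptA* in male 2 h 2 are libraries with 1 and 0 counts.

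The study's first question for these genes is whether they change after injury within a sex. A gene is called here when its edgeR quasi-likelihood p before adjustment was under 0.05 and its log2 FC was beyond 1 in either direction. After Benjamini-Hochberg adjustment over 7865 genes, 0 genes passed 0.05 in any of the 13 comparisons (0%), so each call below holds before adjustment only. The 3 times of a sex share their control libraries, and a change common to them is not seen more than once independently.

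In males none of the 9 tested genes was called at 1 h, where 4.62% of all genes were called in either direction, and DESeq2 and limma voom also called 0. Their median log2 FC was 0.73, against 0.01 over all tested genes, with 7 positive and 2 negative values. *DptB* had the lowest p, at a log2 FC of −2.11 ± 1.6 (SE), with 0.935, 23.4 and 0 CPM at 1 h against 0, 0 and 112 CPM in controls. *CecC* came next, at 1.06 ± 0.83, with 337, 184 and 70.6 CPM at 1 h against 63.3, 0.806 and 216 CPM in controls. No gene had groups without overlap, which 3.85% of all genes did.

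At 2 h in males, 2 of 9 genes were called lower, where 5.39% of all genes were: *AttC*, with a log2 FC of −2.63 ± 1.21, and *CecA1*, with −2.94 ± 1.29 (adjusted p = 0.639 for each). All 9 values were negative, with a median of −1.49 against −0.02 over all genes. No gene had groups without overlap, against 9.75% of all genes. For each of the 9, male control 3 lay above all 3 libraries at 2 h. *CecB* had 3 counts at 2 h and 34 in controls, 32 of them in male control 3, a ratio of 0.0878 (95% counting interval 0.0173 to 0.279).

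At 4 h in males, 2 of 9 genes were called lower, where 2.56% of all genes were: *CecA2*, with −2.92 ± 1.20, and *DptB*, with −4.80 ± 2.08 (adjusted p = 0.963 for each). The median was −2.14 against −0.05 over all genes, and *DptA* alone had a positive value, 0.17 ± 1.02. *DptB* had 2 counts at 4 h and 107 in controls, a ratio of 0.0217 (0.00259 to 0.0803), and all 107 were from male control 3. No gene had groups without overlap, against 6.79% of all genes. Over the mean of the 3 times, *DptB* alone was called lower, at −3.48 ± 1.23 (adjusted p = 0.649), where 5.09% of all genes were called lower.

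Leaving out male control 3 turned the sign of the median in males at 2 h, at 4 h and over the mean of the times, but not at 1 h. That library was the highest male control for each tested gene. A shift upward without it was therefore built in, as was one downward in male against female controls. Without it the median log2 FC of the tested genes with a fold was 3.30 at 1 h, 1.76 at 2 h, 1.47 at 4 h and 2.25 over the mean. In that fit 6.34, 10.5 and 7.05% of all genes were called in either direction at 1, 2 and 4 h and 9.5% over the mean, and 8 members were tested. At 1 h, 5 of them were then called higher before adjustment: *AttB* at 2.92 ± 0.98, *AttC* at 4.83 ± 1.40, *CecA1* at 5.15 ± 1.60, *CecA2* at 4.88 ± 1.40 and *CecC* at 3.20 ± 1.01. The adjusted p of these was 0.659 or, for *AttB*, 0.669. These folds rest on few control counts. Male controls 1 and 2 had 2 and 3 counts of *AttC*, 0 and 2 of *CecA1* and 1 and 2 of *CecA2*. Male 1 h 3 was at 3.07 CPM for each of those genes, so the high levels at 1 h were in male 1 h 1 and male 1 h 2. At 2 h *CecC* alone was called, at 2.08 ± 1.00, and at 4 h none was. *AttC* and *CecA1* at 2 h, called lower with the library, were then at 1.46 ± 1.38 and 2.16 ± 1.56, and *CecA2* at 4 h was at 1.01 ± 1.42. *CecB* kept a negative value, −0.58 ± 2.04 at 2 h and −0.78 ± 2.07 at 4 h. Over the mean of the times the same 5 genes as at 1 h were called higher, at 1.97 ± 0.88 for *AttB*, 2.96 ± 1.30 for *AttC*, 3.43 ± 1.49 for *CecA1*, 2.77 ± 1.30 for *CecA2* and 2.25 ± 0.93 for *CecC*. *DptB* has no fold without male control 3, since the other 2 male controls had 0 counts, and *AttA* no longer met the count minimum. No label sets male control 3 apart from the other controls, and no reason for its level was tested.

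Other single libraries moved the calls as well. The share of all genes called in each of these fits is not given, so the counts below show only that calls moved. Without male control 2, the calls in males were 5 at 2 h, 5 at 4 h and 5 over the mean of the times. The 2 calls at 2 h became 4 without male 1 h 3 and 0 without male 2 h 3. Those at 4 h became 0 without male 4 h 2 or without male 4 h 3, and 1 gene was called at 1 h without male 1 h 2. The call count over the mean of the times became 2 without male control 1, without male 1 h 2 or without male 2 h 1.

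**Figure D4:**
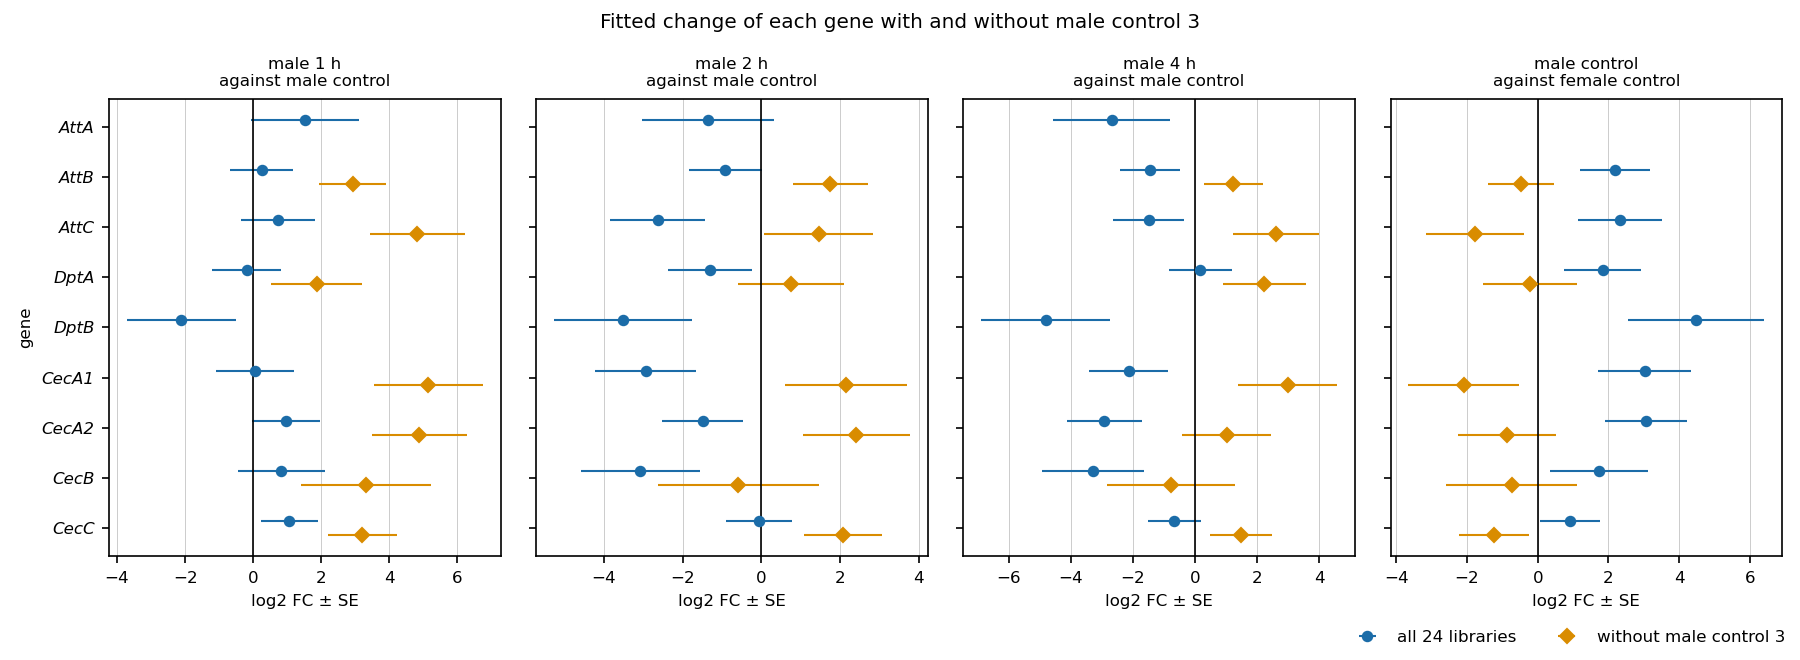
Fitted log2 FC ± SE of each tested gene in 3 male injury comparisons and in male against female controls, with all 24 libraries (blue circles) and without male control 3 (orange diamonds). Values are left out where a group had 0 counts or the gene missed the count minimum. *CecA1* at 2 h was at −2.94 with all libraries and 2.16 without male control 3.

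In females, 0 of 9 genes were called at 1, 2 or 4 h, where 1.44, 2.16 and 1.42% of all genes were, or over the mean of the times, where 2.28% were. DESeq2 and limma voom also called 0 in each of these. The edgeR exact and likelihood ratio tests on the 6 libraries of a comparison each called 1 gene at 1 h and 1 at 4 h. The share of all genes that those tests called is not given. The median log2 FC was 0.66 at 1 h, 0.65 at 2 h and 1.05 at 4 h, beside −0.06, −0.02 and 0.02 over all genes. At 1 h all 8 genes with a fold had positive values. *AttA* has no fold at 1 and 2 h, since it had 0 counts in female controls and at most 2 at those times. At 4 h it had 4 counts, at least 1.39-fold more than a floor of 3 counts over the controls.

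*CecA2* was the single gene without overlap at 1 h in females, at 12.4, 18.3 and 12.6 CPM against 8.25, 2.63 and 5.28 CPM in controls, where 10.3% of all genes had no overlap. Its log2 FC was 1.49 ± 1.15 and was not called. At 4 h *DptA* was without overlap, at 34.6, 25.5 and 40.7 CPM against 22.7, 14.01 and 2.64 CPM, where 6.13% of all genes were, with a log2 FC of 1.38 ± 1.07. At 2 h none of the 9 was, against 5.33% of all genes.

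*DptB* at 4 h in females had 55 counts, against 3 in female controls, a ratio of 19.2 (95% counting interval 6.22 to 95.8). Of the 55 counts, 48 were in female 4 h 2, and the fitted log2 FC was 3.57 ± 1.89 (adjusted p = 1). *CecB* ran the other way at 4 h, with a log2 FC of −1.60 ± 1.52. Female control 1 was the highest female control for 7 of the 8 tested genes counted in these controls, all but *CecB*. Without it the median log2 FC was 1.68 at 1 h, 1.20 at 2 h, 1.60 at 4 h and 1.49 over the mean of the times. Without it or without male control 2, 1 gene was called at 4 h, with the share of all genes in those fits not given.

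The study also asks whether the response differs by sex, which the interaction of sex and injury tests as the male log2 FC minus the female one. At 1 and 2 h, 0 of 9 genes were called, where 3.03 and 3.64% of all genes were. At 2 h DESeq2 and limma voom each called 1, with their share of all genes not given. At 4 h, 3 genes were called lower, where 1.63% of all genes were: *DptB* at −8.37 ± 2.81, *CecA2* at −4.01 ± 1.67 and *AttA*, which has no fold because female controls were at 0 (adjusted p = 1 for each). Since *AttA* passed the count minimum only through the 3 high male libraries, the count to read against that share is 2 of the 8 other genes. Over the mean of the times *DptB* alone was called lower, at −5.35 ± 2.19 (adjusted p = 1), where 1.27% of all genes were. The median was −0.50, −2.42 and −2.29 at 1, 2 and 4 h and −1.53 over their mean. Without male control 3 these medians were 3.19, 1.48, 0.83 and 1.51, and calls numbered 2 at 1 h, 0 at 4 h and 0 over the mean, where 4.34, 4.65 and 4.92% of all genes were called. *CecA2* at 4 h was then at −0.08.

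Calls of the interaction moved with other libraries too, again without the share of all genes in each fit beside them. At 2 h they became 4 without male control 2, and 2 without female control 1, male control 1, male 1 h 2, male 1 h 3 or male 2 h 2, and 1 without female 2 h 3 or male 2 h 1. At 4 h they became 6 without male control 2, 5 without female control 1, and 1 without female control 2, female 4 h 3 or male 4 h 3. Over the mean of the times they became 0 without female control 2 or female control 3, and 2 without female control 1, male 1 h 2 or male 2 h 2. They became 3 without male control 1 or male control 2.

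Between the sexes without injury, 5 of 9 genes were called higher in male than in female controls, where 1.47% of all genes were. These were *AttB* at a log2 FC of 2.19 ± 0.99, *CecA1* at 3.02 ± 1.31, *CecA2* at 3.05 ± 1.16, *DptB* at 4.49 ± 1.92 and *AttA*, with 10 counts against 0 and so at least 3.40-fold higher over a floor of 3 counts (adjusted p = 1 for each). All 10 counts of *AttA* were in male control 3, and the gene passed the count minimum only through the 3 high male libraries, so 4 of the 8 other genes is the count to read against the share of all genes. *DptB* had 107 counts in male controls and 3 in female controls, a ratio of 36.4 (95% counting interval 12.1 to 179). No gene was without overlap, against 5.58% of all genes. The median was 2.26, against −0.01 over all genes.

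Without male control 3 that median was −0.87 and 0 genes were called, against 6.01% of all genes. *AttB* was then at −0.48 ± 0.94, *CecA1* at −2.09 ± 1.57 and *CecA2* at −0.87 ± 1.39. Leaving out female control 2 also gave 0 calls, female control 3 gave 1 and male control 2 gave 8, *AttA* among them. The share of all genes called in those fits is not given. These control libraries are the same ones that enter the injury comparisons and the interactions.

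Across the 24 libraries the tested genes went up and down together. Pearson's r of log2(CPM + 5) ran from 0.35 to 0.85 over the 36 pairs, with a median of 0.62, and Spearman's rho from 0.17 to 0.77, with a median of 0.52. The points share depth and base composition, and the 3 high libraries weigh on r. *AttA* passed the count minimum only through these 3, so its r with the others, up to 0.85, is in part built in. Over the other 21 libraries r ran from −0.13 to 0.65, with a median of 0.31. *AttC* had the highest r with the mean profile of the 9 genes it belongs to, 0.92, and *DptA* the lowest, 0.66.

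Of the genes outside the group, the 5 with the profile most like that mean over 24 libraries were *Ets21C*, *Spn28Dc*, *CG13148*, *Vps8* and *PGRP-SB1*, with r of 0.82, 0.81, 0.81, 0.80 and 0.78. *Ets21C* encodes an ETS-family transcription factor and was at 42.1, 47.9 and 17.8 CPM in male 1 h 1, male 1 h 2 and male control 3, against at most 12.1 CPM elsewhere. *Spn28Dc* encodes a serpin, a serine protease inhibitor, and was at 446, 572 and 170 CPM in those libraries, against at most 126 CPM. *PGRP-SB1* encodes a peptidoglycan recognition protein and was at 92.5, 150 and 204 CPM, against at most 91.4 CPM. All 3 of these genes, with *CG13148* and *Vps8*, a subunit of an endosomal tethering complex, were above each of the 21 other libraries in the 3 high ones. The 5 were picked for likeness to a mean profile on which these 3 libraries weigh, so this is in part built in. Over the 21 others r was 0.64 for *Ets21C*, 0.50 for *Spn28Dc*, 0.32 for *CG13148*, 0.31 for *Vps8* and 0.55 for *PGRP-SB1*.

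*Rel*, the NF-κB factor at the end of the Imd pathway, came sixth, with r of 0.77 over 24 libraries and 0.32 over the other 21. It was at 545, 569 and 110.5 CPM in males at 1 h, against 119.5, 63.7 and 198 CPM in male controls. Male 1 h 1 and 2 stood above all other libraries, while male 1 h 3 lay within the controls. Its log2 FC was 1.69 ± 0.49 (adjusted p = 0.995), and it was called in each of the 24 fits with a library left out, at 1.34 to 2.22. Male control 3, at 198 CPM of *Rel*, was the brain with the highest summed level of the 10 genes. In females *Rel* was at 110.1, 111 and 87.9 CPM at 1 h, against 82.5, 56.1 and 75.2 CPM in controls, and was not called.

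**Figure D5:**
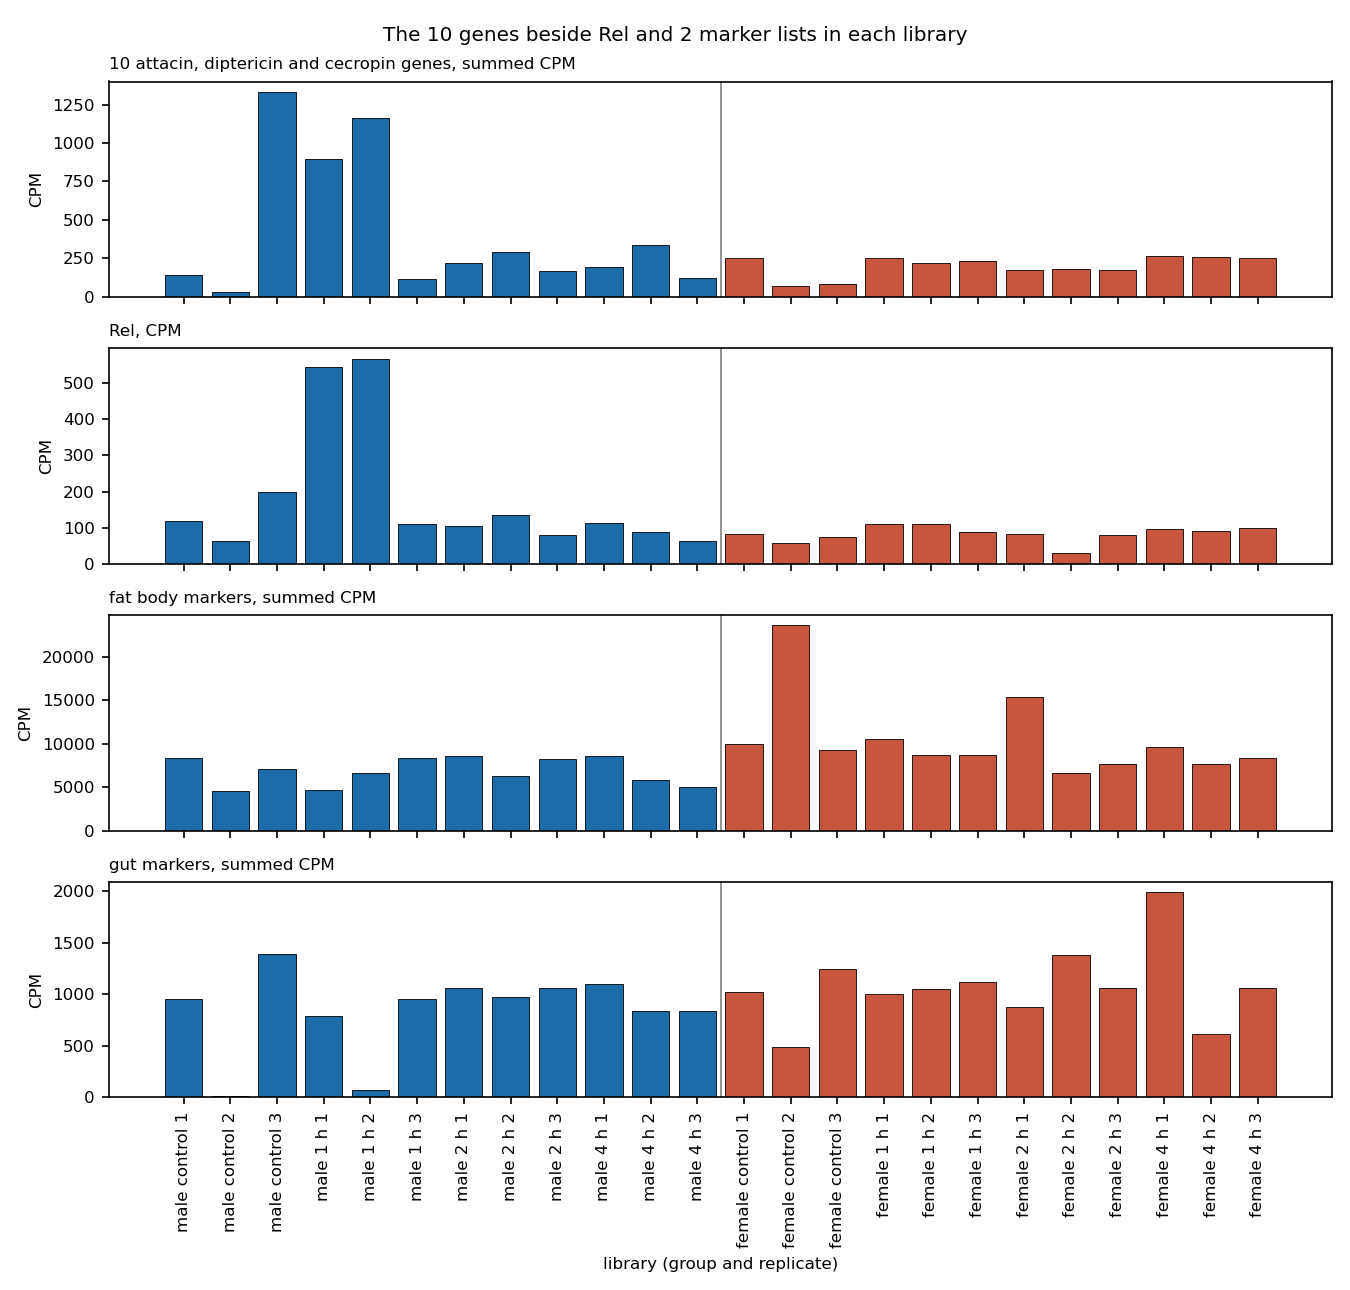
Summed CPM of the 10 genes, CPM of *Rel*, and summed CPM of 15 fat body and 15 gut marker genes in each of 24 libraries, males (blue) left of females (red); all y axes are linear CPM from 0. The 3 libraries with the highest sums of the 10 genes, at 898 to 1333 CPM, had 4627 to 7114 CPM of fat body markers, within the 4592 to 23650 CPM of the others.

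Of the 27 genes listed for the Imd pathway, 26 were matched and 21 tested. In males at 1 h 2 of the 21 were called higher and 1 lower (14.3%, against 4.62% of all genes in either direction), at 2 h 1 higher (4.76%, against 7.23%), and at 4 h 1 higher and 2 lower (14.3%, against 3.92%). In females 1 was called higher at 1 h (4.76%, against 1.44%), 1 higher and 1 lower at 2 h (9.52%, against 2.16%), and 1 higher and 1 lower at 4 h (9.52%, against 1.42%). These are 1 to 3 genes a comparison. The median log2 FC of the list in males was 0.12 at 1 h, 0.22 at 2 h and −0.14 at 4 h.

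*Fadd*, the adaptor between imd and Dredd, was called higher in males at each time and had 0 counts in all 3 male controls. After injury it was at 1.87, 5.45 and 9.21 CPM at 1 h, 12.1, 0 and 11.2 CPM at 2 h and 0, 12.4 and 7.84 CPM at 4 h. These levels came from 15, 12 and 18 counts a group. In male control 1, 3 counts would have been 21.1 CPM, above each of them, so 0 counts there say little. *Fadd* was also called lower in male than in female controls and higher in each interaction. The male 1 h call was lost without male control 2. The interaction calls were lost without female control 2, male control 2 or male control 3 at 1 h, and without these or male 2 h 1 at 2 h, and they held in all 24 fits with a library left out at 4 h and over the mean. *Dredd*, the caspase, had 0 counts in males at 1 h and 0, 0.806 and 9.43 CPM in male controls, and its call did not hold when male control 3, male 1 h 1 or male 1 h 2 was left out.

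At 4 h in males the adaptor *imd* was at 16.3, 4.94 and 3.92 CPM, against 21.1, 24.98 and 27.2 CPM in controls, without overlap, as were 6.79% of all genes. Male 4 h 1, at 16.3 CPM, and male control 1, at 21.1 CPM, each had 3 counts of it. The lack of overlap thus rests on the sizes of these 2 shallow libraries. The log2 FC of *imd* was −1.83 ± 0.77 (adjusted p = 0.963), and leaving out male control 3, male 4 h 2 or male 4 h 3 ended the call. *CG5118*, known as *Charon*, an IκB-like nuclear regulator of this pathway, was called lower there at −3.26 ± 1.57, a call that held in 12 of 24 fits with a library left out. *Uev1A*, a ubiquitin-conjugating enzyme variant, was called higher in females at 1 h with 131, 159 and 217.5 CPM, against 103, 38.5 and 44.9 CPM in controls. Its log2 FC was 1.46 ± 0.52 (adjusted p = 1), it was called in all 24 such fits, and in males at 1 h it was at 97.2, 47.9 and 203 CPM, against 148, 89.4 and 120.5 CPM in controls. *pirk*, an inhibitor of the pathway, had 0 counts in females at 2 and 4 h and was counted in 1 female control, female control 3, at 17.2 CPM. It was at 24.5 CPM in male 1 h 2, 5.61 CPM in male 1 h 1 and 5.24 CPM in male control 3.

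The other antimicrobial peptide genes did not all share the pattern. In all 3 high libraries *Drsl4*, *Dro*, *Listericin* and *edin* were above their median over 24 libraries, and none of the list was below it in all 3. *Listericin* was at 521.6, 817.5 and 384.5 CPM in male 1 h 1, male 1 h 2 and male control 3, against a median of 252.9 CPM. Of 13 listed, 9 were tested. None was called in males at 1, 2 or 4 h, where 4.62, 7.23 and 3.92% of all genes were. In females none was called at 1 and 2 h, where 1.44 and 2.16% of all genes were. *Drsl3* alone was called lower in females at 4 h, with 0 counts against 0, 0 and 15.8 CPM in controls, where 1.42% of all genes were called in either direction. So few calls among 9 genes do not set them apart from all genes. *Dro*, the drosocin gene next to *AttA*, was at 577, 720.0 and 24.6 CPM in males at 1 h, against 56.2, 350 and 236 CPM in male controls. *Drs*, which encodes the antifungal peptide drosomycin and is best known as a Toll pathway target, was at 739, 238 and 319 CPM in males at 1 h, against 274, 592 and 606 CPM in controls. *Anp*, next to *CecA1*, was counted in male 1 h 1 and male 1 h 2, at 4.67 and 6.536 CPM, and had 0 counts in the 22 other libraries.

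Marker lists of other tissues were read beside the 3 high libraries, and their part in the levels of the 10 genes was not tested. The 15 fat body markers summed to 4627 CPM in male 1 h 1, 6674 CPM in male 1 h 2 and 7114 CPM in male control 3, against 4592 to 23650 CPM in the 21 others. By group they summed to 4592 to 8343 CPM in male controls, 4627 to 8402 CPM in males at 1 h, 6244 to 8573 CPM at 2 h and 5013 to 8546 CPM at 4 h. The 3 high libraries thus lay within the range of the others, and within that of the other male libraries. The 23650 CPM was in female control 2, and no male library exceeded 8573 CPM. Of the 15 markers, 4 in male 1 h 1, 6 in male 1 h 2 and 8 in male control 3 were above their median over 24 libraries. In all 3 libraries *fit*, *Tsf1* and *Obp99b* were above it and *Yp1*, *Yp2*, *Yp3* and *apolpp*, the precursor of the main lipid carrier of the haemolymph, below it. The medians cover both sexes and the 3 libraries were all male, so any sex difference of a marker enters these comparisons. *Tsf1*, which encodes the iron carrier transferrin, was at 998, 1429 and 1056 CPM, against a median of 852 CPM. *Fbp1* and *Lsp1gamma* had 0 counts in all 3, and were counted in 2 and 3 of the 24 libraries.

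The 9 haemocyte markers summed to 241, 244 and 384 CPM in male 1 h 1, male 1 h 2 and male control 3, against 297 to 542 CPM in the 21 others. Of the 9, 3, 3 and 4 were above their median in these libraries. In all 3, *eater*, a phagocytic receptor gene, was above it, at 20.6, 21.2 and 17.8 CPM against 12.7 CPM. *Hml*, the haemocyte gene hemolectin, at 46.7, 12.5 and 39.8 CPM against 90.9 CPM, and *crq* were below it, and *He* had 0 counts. The 15 gut markers summed to 784, 68.6 and 1386 CPM, against 12.9 to 1988 CPM, and 3, 1 and 11 of them were above their median. *LysB*, *LysE* and *LManV* had 0 counts in all 3. Male control 3 was the highest library for the gut protease genes *Jon25Bi*, *Jon99Ci* and *betaTry*, at 70.2, 9.43 and 25.2 CPM. Male control 2, the library with the lowest sum of the 10 genes, had the lowest sum of gut markers, but male 1 h 2, among the 3 highest, had the next lowest. Male control 2 was unusual in other lists too. It was the lowest library for muscle markers, at 498 CPM, and the highest for glial markers, at 3360 CPM. Male 1 h 2 had 17560 CPM of 12 photoreceptor markers, against at most 9634 CPM in the 21 others, and 510.3 CPM of 12 muscle markers, near the lowest of 498 CPM. The 13 neuronal markers summed to 2866, 1595 and 3056 CPM in the 3 high libraries, against a median of 4576 CPM and a range of 1686 to 5677 CPM in the 21 others. The 10 glial markers summed to 2103, 2953 and 2044 CPM, against a median of 2313 CPM and a range of 1719 to 3360 CPM. Of the 10, 6 in male 1 h 1, 7 in male 1 h 2 and 5 in male control 3 were above their median over 24 libraries. In all 3, *alrm*, *wrapper*, *bdl* and *Gat* were above it, and *moody* and *Gs2*, the glial marker of highest level, below it. Their part in the levels of the 10 genes was not tested.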

How the data were processed

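The count values are reads per gene that the authors obtained by sorting reads with CASAVA 1.8.2, aligning them to dm3 with STAR 2.4 and counting with HTSeq, and deposited without normalization. Annotation version and strand setting are not given in the sources used here. The table tallies reads outside genes, ambiguous between genes or with several aligned places apart from genes, and these stayed out of library sizes. Reads with several places were 12.2 to 32.2% of a library's total in the table. The authors' tables of comparisons (log2 fold change, average log2 CPM, likelihood ratio, p-value and FDR) were not used.

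All 24 libraries entered 1 robust quasi-likelihood fit of 8 groups in edgeR 4.0.16 (R 4.3.3) with TMM factors, for genes with at least 5 counts in at least 3 libraries. The 13 comparisons were 6 of injury with control, 2 of the mean of 3 times, 4 interactions and 1 of control sexes. The SE is the log2 FC divided by the square root of F. The fit was tested on simulated data. Ratios of pooled counts carry exact 95% intervals, and a group at 0 was set to 3 counts. Where a group had 0 counts no fitted fold is given, and medians are over the genes with a fold. Correlations used log2(CPM + 5). Tables were handled with pandas 2.3.3, figures with matplotlib 3.10.9 and intervals with scipy 1.17.1, under Python 3.11.15.

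The genes and the Imd, peptide and marker lists were chosen with earlier results of these data known. Named genes were all 10 and, from the Imd list, each called gene (up to 4 of lowest p in a comparison). The 5 other genes with a profile most like the mean of the tested 9 were named too. *Rel* as sixth, *Anp*, *Dro*, *Drs*, *Drsl3*, *Drsl4*, *Listericin*, *edin*, *Mtk*, some tissue markers and the 3 high libraries were singled out after their values were seen. Of 136 list entries, 135 matched a symbol. Gene IDs, arms and neighbours came from a BDGP6 annotation, a later build, so no coordinates are given.

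Libraries carry replicate numbers 1 to 3. Same-numbered libraries deviated together, with every pair's correlation over 0.1, for females at 4 h against control (0.382, 0.484 and 0.124) and for male against female controls (0.493, 0.468 and 0.121). There a replicate block left the calls at 0 and 5. Alternatives were other size factors, library totals, filters, DESeq2 1.42.0, limma 3.58.1 (voom), tests on 6 libraries, other thresholds, the block, and libraries left out.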

Additional observations from a re-analysis of the deposited data

Results flagged for a closer look

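The interaction of sex and injury was called for 3 genes at 4 h and for *DptB* over the mean of the times, by the edgeR test before adjustment only. Of these *AttA* at 4 h has no fold, since female controls were at 0, and it passed the count minimum only through the 3 high male libraries. *DptB* at 4 h had an interaction of −8.37 on the log2 scale (adjusted p = 1), with 5.43, 1.24 and 0 CPM in males at 4 h against 0, 0 and 112 CPM in male controls, and 5.19, 51.0 and 5.26 CPM in females at 4 h against 6.19, 0 and 0 CPM in female controls. The male side rests on male control 3 and the female side on female 4 h 2. *CecA2* at 4 h had an interaction of −4.01 (adjusted p = 1), and −0.08 without male control 3. Over the mean of the 3 times, *DptB* had an interaction of −5.35 (adjusted p = 1), and without male control 3 it has no fold.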

How the results depend on the processing

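Few counts and 3 brains a group limit these results: at the shallowest depth 3 counts were 21.1 CPM, and with 0 calls after adjustment a call is no more than an unadjusted p. Counts of calls in this section stand without the share of all genes called in that setting, so they are no result about the genes. With RLE factors, library totals, filterByExpr or |log2 FC| over 2 in place of the main choice, no count of calls moved by over 1.5 times. With the adjusted p as threshold, calls were 0 in males at 2 and 4 h and over the mean of the times, in the interaction at 4 h and over the mean, and between controls. DESeq2 called 0 over the mean in males, 1 in the interaction at 2 h, 1 at 4 h and 0 over the mean. Limma voom called 6 genes in males at 2 h, 4 at 4 h and 2 over the mean, and 1 and 5 in the interaction at 2 and 4 h. With no filter on low counts, 1, 4 and 6 genes were called in males at 1, 2 and 4 h, 3 over the mean, 1 in females at 4 h, 4 and 6 in the interaction at 2 and 4 h and 4 over its mean. The exact test on 6 libraries called 1 gene in females at 1 h, 1 at 4 h and 3 between controls, and the likelihood ratio test 1 at 1 h and 1 at 4 h in females.

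Without the 3 shallowest libraries, 4 genes were called in males at 2 h, 4 at 4 h and 2 over the mean, and 3 each in the interaction at 2 h and over its mean. Without both male control 2 and male 1 h 2, calls in males were 2, 5 and 6 at 1, 2 and 4 h and 6 over the mean, in females 1 at 4 h, and in the interaction 2, 4 and 6 at 1, 2 and 4 h and 3 over the mean. The median log2 FC was then −0.84, −2.66 and −1.91 in males at 1 h, at 2 h and over the mean, and −1.72, −3.05 and −2.31 in the interaction. *AttC* in males at 2 h was at −3.24 and *CecA2* between controls at 3.68. The replicate block gave 4 calls in males at 2 h and 1 in the interaction at 2 h and changed no other count of calls. For the comparisons other than females at 4 h and the controls, libraries shared only a number, with pair correlations from −0.311 to 0.549. The median correlation among genes was 0.31 over the 21 other libraries, an alternative chosen after seeing the data.

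Leaving out 1 library at a time, calls in males ranged from 0 to 5 at each time and from 1 to 5 over the mean. In females they ranged from 0 to 1 at 4 h and were 0 at 1 h, at 2 h and over the mean. In the interaction they ranged from 0 to 2, 0 to 4 and 0 to 6 at 1, 2 and 4 h and 0 to 3 over the mean, and between controls from 0 to 8. The median log2 FC ranged from −0.23 to 3.30, −2.33 to 1.76 and −2.74 to 1.47 in males at 1, 2 and 4 h, and −1.72 to 2.25 over the mean. In females it ranged from 0.32 to 1.68 at 1 h and 0.41 to 1.49 over the mean. In the interaction it ranged from −1.08 to 3.19, −3.02 to 1.48 and −3.04 to 0.83, and −2.15 to 1.51 over the mean, and between controls from −0.87 to 3.15. *AttC* and *CecA1* at 2 h ranged from −3.23 to 1.46 and −3.53 to 2.16, and *CecA2* at 4 h from −3.53 to 1.01 in males. Between controls *AttB* ranged from −0.48 to 3.15, *CecA1* from −2.09 to 4.13 and *CecA2* from −0.87 to 3.66. Each change of sign among these 6 values came without male control 3.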

Other observations

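Male control 2 was low for most of the 10 genes, with 28 counts of *AttB* and at most 4 of any other. *CecC*, counted in all 24 libraries, had 1 count (0.806 CPM) there, against 25.4 CPM in the next lowest library. Male 2 h 2 had 0 counts of *DptA*, *CecB* and *AttD* beside 165 of *AttB*. *Mtk*, which encodes the peptide metchnikowin, was highest in male 2 h 2, at 702 CPM, and *Drs* was highest there too, at 1978 CPM, while the 10 genes summed to 291 CPM in that brain. *Mtk* was at 204, 214 and 213 CPM in females at 1 h and 209, 238 and 221 CPM at 4 h, against 161, 70.1 and 89.8 CPM in female controls. It did not overlap with controls at either time and was not called. Of all genes, 10.3% had no overlap at 1 h and 6.13% at 4 h, and both times share the same controls.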
